A study of Mus musculus with 32 samples.

Results

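Transcripts of heat shock proteins and chaperones were compared in the cardiac ventricle of mice. The genes were chosen by name: any gene whose annotated symbol begins with Hspa, Hspb, Hspd, Hspe, Hsph, Hsp90 or Dnaj, or is one of the Cct genes from Cct2 to Cct8, was included if at least 1 probe set named it alone. This gave 74 genes among the 13660 genes with such a probe set, on 131 probe sets, and for each gene the probe set with the highest mean signal was chosen; unless another is named, values and counts of genes refer to it. Of these, 48 were taken from the first and 26 from the second of 2 types of Affymetrix array. A name is not a function: Hspb11, for example, is also known as Ift25, a protein of cilia, and many Dnaj proteins have specialised partners and are not general folding factors.

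The study set mice with a cardiac specific AT1 transgene, in cardiac failure or in cardiac hypertrophy, against wild type mice. Each array type was used for 3 failure, 8 hypertrophy and 5 wild type samples of total RNA, 32 arrays in all. AT1, which the labels leave as an abbreviation, is the usual short name of a receptor for angiotensin II, and the promoter that drives the transgene is not named. Age, sex and strain are not labelled, nor is it said whether each sample was a different animal. The p-values therefore rest on the spread of these samples alone, some of which may be technical.

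Chaperones bind unfolded or partly folded proteins and keep them from aggregating. HSP70 proteins cycle on and off their clients with ATP, J proteins (Dnaj genes) deliver the clients and start that cycle, and HSP110 proteins exchange the nucleotide. HSP90 acts later on kinases and steroid receptors, the ring-shaped chaperonins fold proteins in a closed chamber, and small heat shock proteins hold unfolded clients without ATP, several of them at high levels in muscle. Under heat or proteotoxic stress, the factor HSF1 binds heat shock elements in the promoters of many of these genes, while stress in the endoplasmic reticulum acts on Hspa5 and Hsp90b1 through ATF6.

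Promoters from 250 bases before to 50 bases after the annotated start were taken from RefSeq (build GRCm38.p6), where 61 of the 74 genes matched, with 79 promoters. On either strand, a heat shock element of 3 units was searched as GAANNTTCNNGAA or TTCNNGAANNTTC, and the shorter one of 2 units, which lies inside the longer, as GAANNTTC or TTCNNGAA. The long form was in 6 of the 79 promoters (7.59%), of Dnajb6, Hspd1, Hspe1 and Hsph1, against 198 of all 32851 promoters (0.603%). These 6 are not separate sites, since promoters that overlap are counted each. Both Hsph1 promoters hold the same site, Hspe1 shares its site with Hspd1, and Dnajb6 is counted with 2 promoters. The short form was in 24.1% of the chaperone promoters and 15.1% of all. The endoplasmic reticulum stress response element, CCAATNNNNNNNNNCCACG, was in 3 chaperone promoters (3.80%), of Dnajc3, Hsp90b1 and Hspa5, against 0.119% of all. A match describes these letters and does not show that a factor binds there.

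Hspd1 and Hspe1, which encode the ring and the lid of the mitochondrial chaperonin, lie head to head on chromosome 1. They are shown because 1 of the 2 annotated Hspd1 windows (chr1:55087883-55088182, minus strand) shares 285 of its 300 bases with the Hspe1 window (chr1:55087898-55088197, plus strand), with the same heat shock element read from both sides. Capitals mark matches to either form of the element, which run through positions -89 to -72 of Hspe1 and -144 to -127 of Hspd1, counted from the start site.
Hspe1: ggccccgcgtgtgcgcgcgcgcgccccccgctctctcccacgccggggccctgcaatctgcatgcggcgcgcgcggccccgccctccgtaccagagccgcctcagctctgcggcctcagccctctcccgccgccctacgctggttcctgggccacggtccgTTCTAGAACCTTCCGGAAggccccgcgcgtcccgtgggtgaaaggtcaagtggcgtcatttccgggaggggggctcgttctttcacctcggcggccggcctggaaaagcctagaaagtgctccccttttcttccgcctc
Hspd1: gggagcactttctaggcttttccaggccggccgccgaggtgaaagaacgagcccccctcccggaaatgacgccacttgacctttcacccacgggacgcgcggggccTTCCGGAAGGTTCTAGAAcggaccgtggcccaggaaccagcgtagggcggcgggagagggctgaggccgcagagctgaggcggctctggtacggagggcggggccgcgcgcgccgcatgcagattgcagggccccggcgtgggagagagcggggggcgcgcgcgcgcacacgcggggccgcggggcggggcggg

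The Hsph1 promoter (chr5:149636287-149636586, minus strand) is shown because Hsph1 varied most within groups. Capitals again mark heat shock elements, a short one at -33 to -26 and a long one at 37 to 49, after the start. In the other annotated Hsph1 window, which is not printed, the same elements stood at -54 to -47 and at 16 to 28. In the Hspa5 (chr2:34771840-34772139, plus strand) and Hsp90b1 (chr10:86705395-86705694, minus strand) promoters, capitals mark the endoplasmic reticulum stress response element. It stood at -65 to -47 in Hspa5, and in Hsp90b1 at -212 to -194 and, on the other strand, at -107 to -89.
Hsph1: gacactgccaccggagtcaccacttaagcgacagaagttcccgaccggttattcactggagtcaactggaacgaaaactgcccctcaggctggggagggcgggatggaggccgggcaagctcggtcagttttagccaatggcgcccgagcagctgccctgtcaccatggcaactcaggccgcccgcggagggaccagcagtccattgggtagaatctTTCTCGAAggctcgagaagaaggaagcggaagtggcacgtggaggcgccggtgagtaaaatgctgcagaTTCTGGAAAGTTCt
Hspa5: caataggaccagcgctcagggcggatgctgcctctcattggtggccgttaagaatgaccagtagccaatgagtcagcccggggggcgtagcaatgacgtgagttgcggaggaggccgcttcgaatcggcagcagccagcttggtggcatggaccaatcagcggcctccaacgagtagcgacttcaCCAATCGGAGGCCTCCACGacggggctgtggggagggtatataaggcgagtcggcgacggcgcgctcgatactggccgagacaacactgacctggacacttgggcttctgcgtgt
Hsp90b1: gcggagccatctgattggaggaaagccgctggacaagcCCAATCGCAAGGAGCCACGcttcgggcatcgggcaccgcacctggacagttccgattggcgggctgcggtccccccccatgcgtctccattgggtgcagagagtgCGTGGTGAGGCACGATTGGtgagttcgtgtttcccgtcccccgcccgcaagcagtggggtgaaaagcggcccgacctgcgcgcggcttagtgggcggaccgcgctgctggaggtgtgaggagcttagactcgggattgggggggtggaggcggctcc

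Values are linear intensities as deposited, called signals here, and differences are given in log2 after raising dim values to a floor of 39.5 on the first array type and 27.5 on the second. A gene was tested where its probe set reached the array's median in at least 3 arrays. That left 53 of the 74 genes, 34 on the first and 19 on the second type. The median signal of an array was between 91.8 and 121 on the first type and between 69.3 and 80.6 on the second. Hypertrophy array 7 had a 5' to 3' Gapdh ratio, a sign of RNA quality, of 0.0487 and 0.0414 on the 2 types, and hypertrophy array 6 one of 0.468 and 0.379, where all other arrays were at 0.772 or more. On the first type, the Actb ratio was 0.960 ± 0.173 in failure (SD, n = 3), 0.701 ± 0.204 in hypertrophy (SD, n = 8) and 0.623 ± 0.0819 in wild type (SD, n = 5). On the second type it was 1.09 ± 0.207, 0.825 ± 0.278 and 0.747 ± 0.144 in the same groups. The Actb ratio thus moved with the groups, and its part in the differences below was not tested. Summed markers of heart muscle cells (7 of 8 genes on the first type, none below the floor on every array) were 42079 to 42690 in failure, 37094 to 46214 in hypertrophy and 39926 to 43747 in wild type. Summed atrial markers (4 of 4 genes) were 4093 to 5940 in failure, 986 to 4659 in hypertrophy and 1265 to 3391 in wild type. In failure most of that sum was Nppa, at 3475, 3943 and 4420. Myl7 read 506, 300 and 750 in failure, against 112 to 299 in wild type. Myl4 read 69.8, 64.1 and 730 in failure, against 139 to 507 in wild type, and Sln overlapped. The atrial markers thus did not move together. Fibroblast markers (7 of 7 genes) summed to 3348 to 7006 in failure, 2214 to 5229 in hypertrophy and 3353 to 4090 in wild type. What part these cells had in the chaperone differences was not tested, and in bulk tissue fewer cells of a type and less RNA per cell cannot be told apart.

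With its chosen probe set, no chaperone gene passed the test in failure against wild type (limma, Benjamini-Hochberg adjusted p under 0.05), where 0.25% of all 13984 tested probe sets did. At an unadjusted p under 0.05 there were 4 of 53 chaperone genes (Dnajc10, Dnajc2, Dnajb4 and Hspb7), 7.55%, against 11.4% of all probe sets. The median log2 difference was 0.12 over the chaperone genes, with 36 above 0 and 17 below. Over all probe sets it was 0.05, with 8351 above 0 and 5633 below. The median of the chaperone genes rests in part on single arrays: it was 0.050 without wild type array 2 and 0.19 without failure array 3. In 7 tested genes every failure array lay above every wild type array, 13.2% of the tested genes against 9.17% of all probe sets. They were Cct8, Dnaja4, Dnajb4, Dnajc10, Hsp90aa1, Hspa8 and Hspb7. Of the chosen probe sets, that of Dnajb2 alone lay below in every failure array, 1.89% against 4.35% of all probe sets. With the chosen probe sets, the shares of chaperone genes were thus near those of the whole table.

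A further 21 tested probe sets belonged to 15 of the same genes, and 0 of them passed in any comparison (limma). In failure against wild type, 5 of the 21 had an unadjusted p under 0.05 (limma), against 11.4% of all probe sets. The same 5 had every failure array above wild type, against 9.17%, and 1 had every failure array below, against 4.35%. In hypertrophy against wild type, 1 of 21 had an unadjusted p under 0.05 (limma), against 7.12%, and 0 separated the groups. In failure against hypertrophy 4 of 21 had one, against 9.36%, and in 2 every failure array lay above hypertrophy, against 1.47%. In both comparisons with failure, the shares by p and with failure above were thus higher than in the whole table. Several of the 21 name the same gene. The counts include a Dnajc1 and a Cct3 probe set tested mainly through the group where they were high, as given below. They also include an Hspa4 probe set that reached the array's median in no wild type array. The probe sets named from these are given with their genes below, and their values were known when they were picked.

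**Figure D1:**
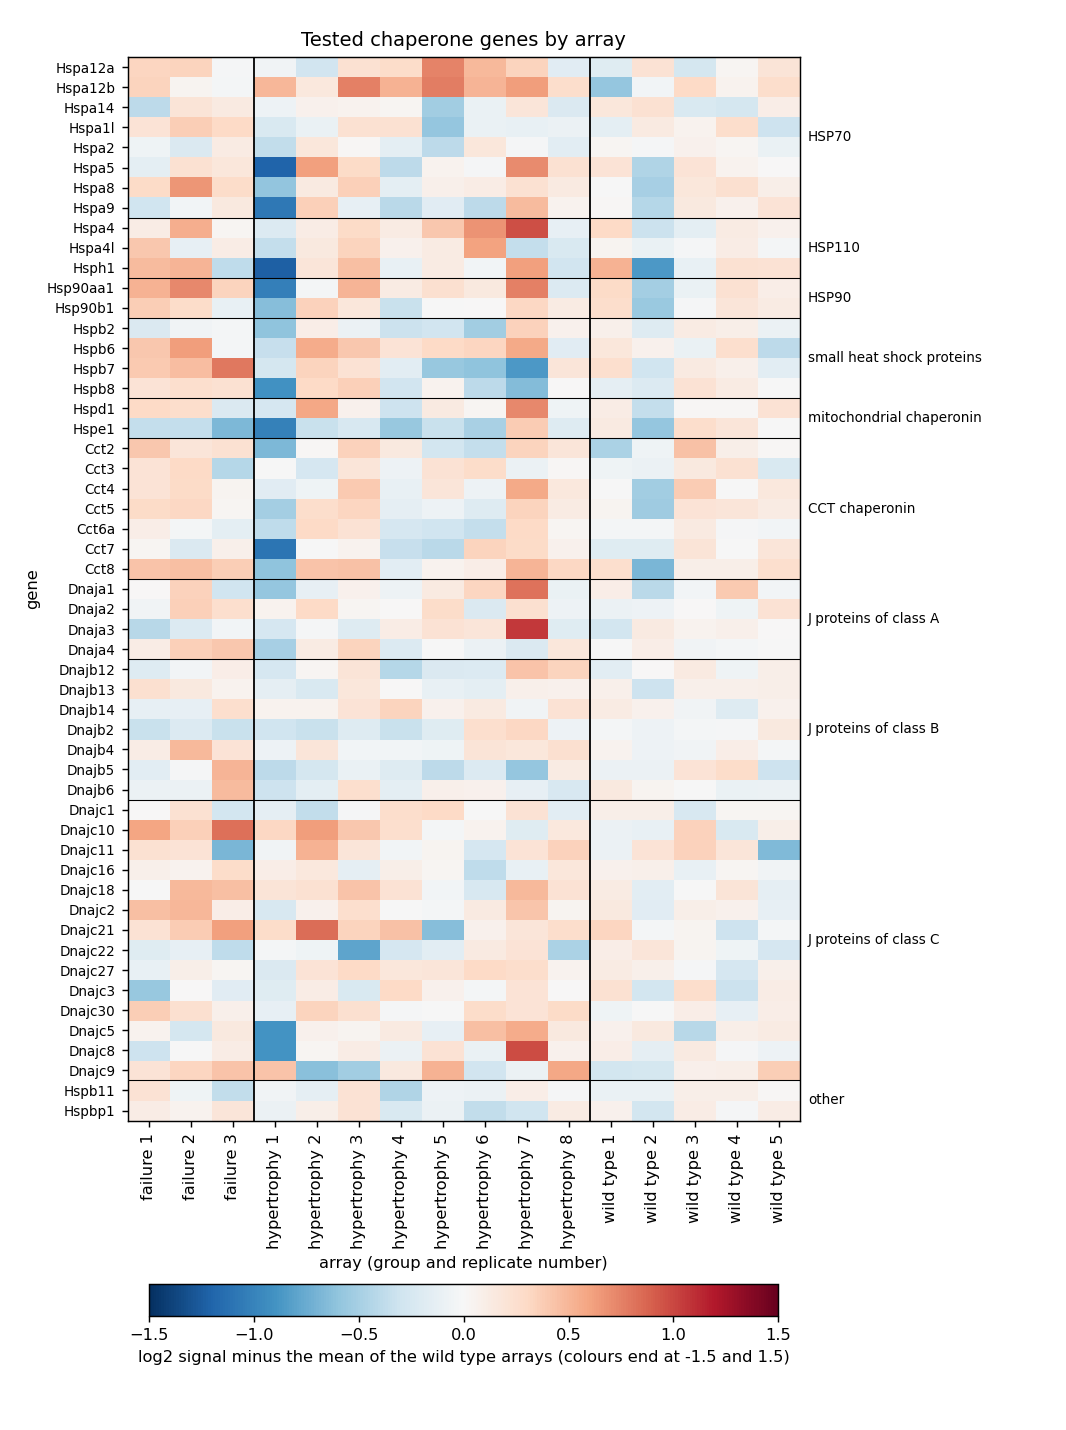
Log2 signal of the 53 tested chaperone genes (rows, by family) in each array (columns: 3 failure, 8 hypertrophy and 5 wild type), as the difference from the mean of the wild type arrays. Red is above and blue below that mean. Hypertrophy 1 is blue and hypertrophy 7 red for many genes, and no family has 1 colour in all arrays of a group.

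**Figure D2:**
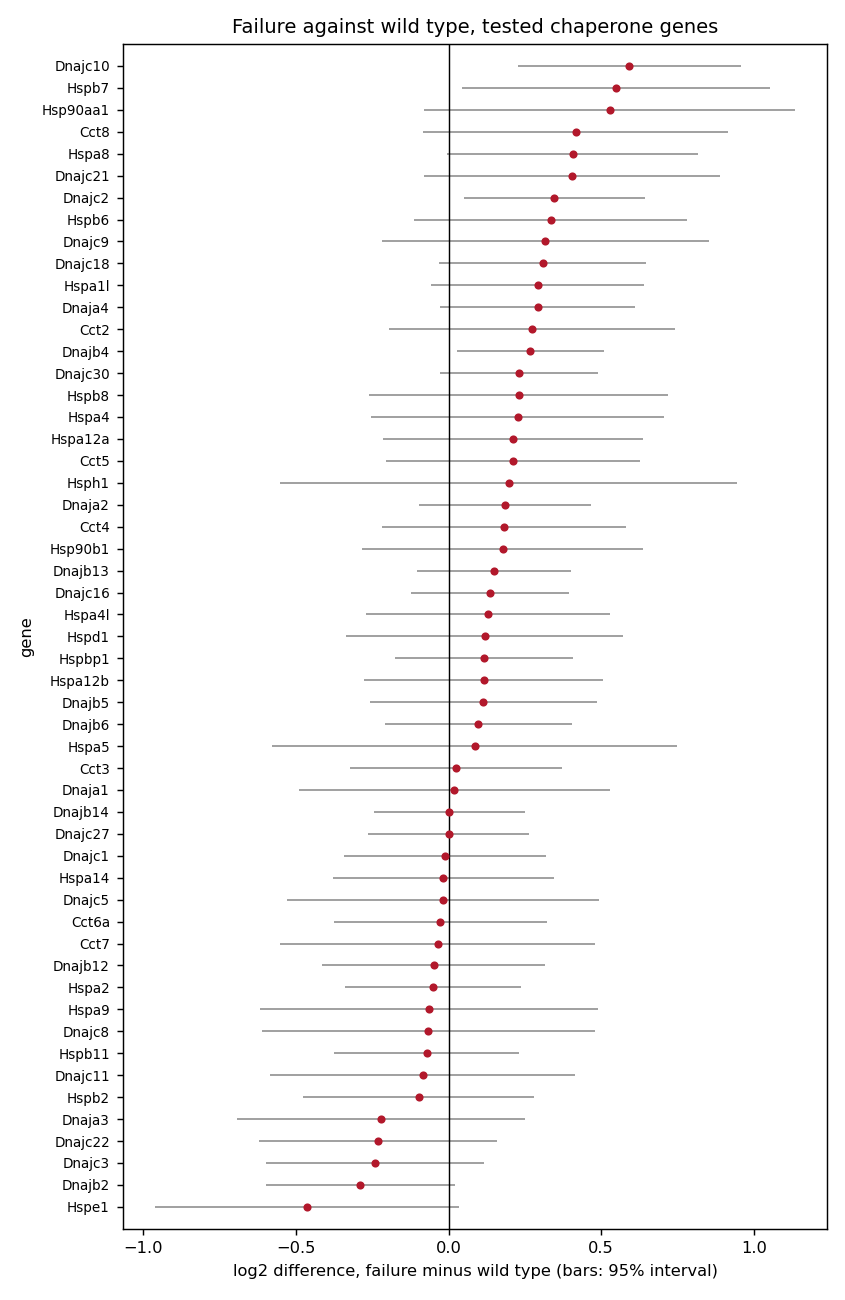
Log2 difference (horizontal axis), failure minus wild type, for each of the 53 tested chaperone genes (vertical axis), with 95% intervals as bars that are not adjusted for multiple tests. Dnajc10 is at the top at 0.59 and Hspe1 at the bottom at -0.46. Of the 53 points 36 lie above 0, as do 8351 of all 13984 tested probe sets.

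Among the HSP70 genes, 8 of 11 were tested and 0 passed (0 of 8 at an unadjusted p under 0.05, limma), with a median log2 difference of 0.10 in failure against wild type. Hspa8 encodes HSC70, the constitutive cytosolic HSP70. Its signal was 1553, 2023 and 1544 in the failure arrays. In hypertrophy it had a lowest value of 851, a median of 1392 and a highest of 1641. The wild type arrays read 1276, 908, 1433, 1512 and 1353. All 3 failure arrays were above all wild type arrays, though the lowest was only slightly higher than the brightest wild type array. The log2 difference was 0.41 ± 0.19 (SE), a fold of 1.33 with a 95% interval of 0.997 to 1.76 (limma adjusted p = 0.469).

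The stress-inducible HSP70 genes were dim in these hearts. Hspa1b lay below the floor on 15 of 16 arrays and was not tested. It read 36.85 to 41.6 in failure, 10.7 to 30.7 in hypertrophy and 20.4 to 31.5 in wild type. Failure thus lay above both other groups in every array, but at values near or below the floor. Hspa1a was not tested and read 71.5 to 83.6 in failure, 53.4 to 95.8 in hypertrophy and 60.9 to 81.3 in wild type, so the groups overlapped. These near-identical genes may share signal, since probes can bind both transcripts. Hspa1l, a related gene best known from testis, read 135, 151 and 143 in failure, a lowest of 77.9, a median of 109 and a highest of 137 in hypertrophy, and 94.1 to 140 in wild type. Its failure arrays overlapped both other groups. Against hypertrophy it was higher in failure by a log2 difference of 0.39 ± 0.15 (SE), which did not pass (limma adjusted p = 0.406).

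Hspa5 (BiP, the HSP70 of the endoplasmic reticulum) read 283, 368 and 354 in failure, 136.5 to 514 in hypertrophy, and 229 to 361 in wild type. The groups overlapped widely, and hypertrophy alone spanned the values of both others. The log2 difference was 0.08 ± 0.31 (SE) in failure against wild type (limma adjusted p = 0.964). Hspa9 (mortalin, which pulls proteins into the mitochondrion) read 430 to 585 in failure, 252 to 738 in hypertrophy and 394.5 to 608 in wild type. Hspa2, known for its role in sperm formation, read 71.2 to 89.9 in failure, 62.7 to 93.2 in hypertrophy and 77.0 to 86.4 in wild type. Hspa14, which works at the ribosome, read 68.0 to 102 in failure, 61.9 to 101 in hypertrophy and 74.1 to 104 in wild type. None of these 3 genes separated any pair of groups.

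Hspa12b, an atypical HSP70 expressed mainly in endothelium, had the smallest p-value of the chosen probe sets in hypertrophy against wild type. In failure its signal was 356, 290 and 276. It had a lowest value of 316, a median of 403 and a highest of 480 in hypertrophy, against 188, 275, 348, 293 and 340 in wild type. The hypertrophy values overlapped the upper wild type arrays and reached above all of them. The log2 difference of hypertrophy from wild type was 0.51 ± 0.14 (SE), a fold of 1.43 with a 95% interval of 1.16 to 1.76 (limma adjusted p = 0.246). Failure was lower than hypertrophy by a log2 difference of -0.40 ± 0.17 (limma adjusted p = 0.528). Summed endothelial markers on the first array type (7 of 7 genes, none below the floor everywhere) were 526 to 1063 in hypertrophy and 767 to 971 in wild type, and their part in the Hspa12b difference was not tested.

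The HSP110 genes, all 3 tested, had differences above 0 in failure against wild type with their chosen probe sets, and 0 passed (0 of 3 at an unadjusted p under 0.05, limma). Hsph1 read 197.5, 203 and 109 in failure. In hypertrophy the lowest value was 60.8, the median 147 and the highest 218. In wild type it read 205, 78.6, 132, 167 and 166. Every group held both low and high arrays, and the pooled within-group SD, 0.54 in log2, was the largest among tested chaperone genes, whose median was 0.26 against 0.23 for all probe sets. The difference was 0.20 ± 0.36 (SE, limma adjusted p = 0.898), and it was -0.02 without wild type array 2. Hspa4 (Apg-2) read 213.5 to 304 in failure, 182 to 410 in hypertrophy and 167 to 258 in wild type. Its difference in hypertrophy against wild type was 0.28 ± 0.18 (SE, limma adjusted p = 0.960). Hspa4l read 97.2 to 140 in failure, 82.7 to 160.5 in hypertrophy and 98.7 to 114 in wild type, again with overlap.

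Other probe sets of Hspa4 and Hspa4l gave other pictures. Of 2 others for Hspa4, the one with the smaller spread read 120, 138 and 122 in failure, with a lowest of 96.6, a median of 107 and a highest of 110 in hypertrophy, and 99.5, 93.0, 97.8, 92.2 and 100.1 in wild type. Its failure arrays lay above every array of both other groups. The log2 difference was 0.39 ± 0.09 (SE, limma adjusted p = 0.117) in failure against wild type and 0.27 ± 0.08 (SE, limma adjusted p = 0.293) in failure against hypertrophy. With the filter on dim probe sets, this Hspa4 probe set reached the array's median in failure and hypertrophy arrays but in no wild type array. The filter thus favoured values above wild type. With no filter, its difference between failure and wild type passed (limma adjusted p = 0.00767). The log2 difference was unchanged there, and the SE fell from 0.091 to 0.054 with the shared estimate of spread.

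The remaining Hspa4 probe set read 109 to 129 in failure, 51.1 to 119 in hypertrophy and 69.0 to 112 in wild type. It differed by -0.16 ± 0.20 (SE, limma adjusted p = 0.978) in hypertrophy against wild type, so the direction for Hspa4 there depends on the probe set, and by 0.49 ± 0.23 (SE, limma adjusted p = 0.492) in failure against hypertrophy. The other Hspa4l probe set read 121, 112 and 115 in failure, 80.4 to 110.3 in hypertrophy, and 72.8, 76.6, 108, 107 and 91.8 in wild type. Failure lay above both other groups in every array. Its log2 difference was 0.37 ± 0.14 (SE, limma adjusted p = 0.294) in failure against wild type and 0.26 ± 0.13 (SE, limma adjusted p = 0.603) in failure against hypertrophy.

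Both HSP90 genes that had a probe set of their own were tested, and 0 passed (0 of 2 at an unadjusted p under 0.05, limma). Hsp90aa1, the inducible cytosolic form, read 596, 684 and 523 in failure. In hypertrophy the lowest value was 203.5, the median 455 and the highest 697.5. In wild type it read 506, 291, 385, 484 and 443. Failure lay above wild type in every array, whereas hypertrophy reached both below the dimmest wild type array and above the brightest failure array. The log2 difference of failure from wild type was 0.53 ± 0.29 (SE), a fold of 1.44 with a 95% interval of 0.947 to 2.20 (limma adjusted p = 0.555). Hsp90b1 (Grp94, in the endoplasmic reticulum) read 361 to 505 in failure, 251.5 to 498 in hypertrophy and 265 to 471 in wild type, with overlap between all groups.

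**Figure D3:**
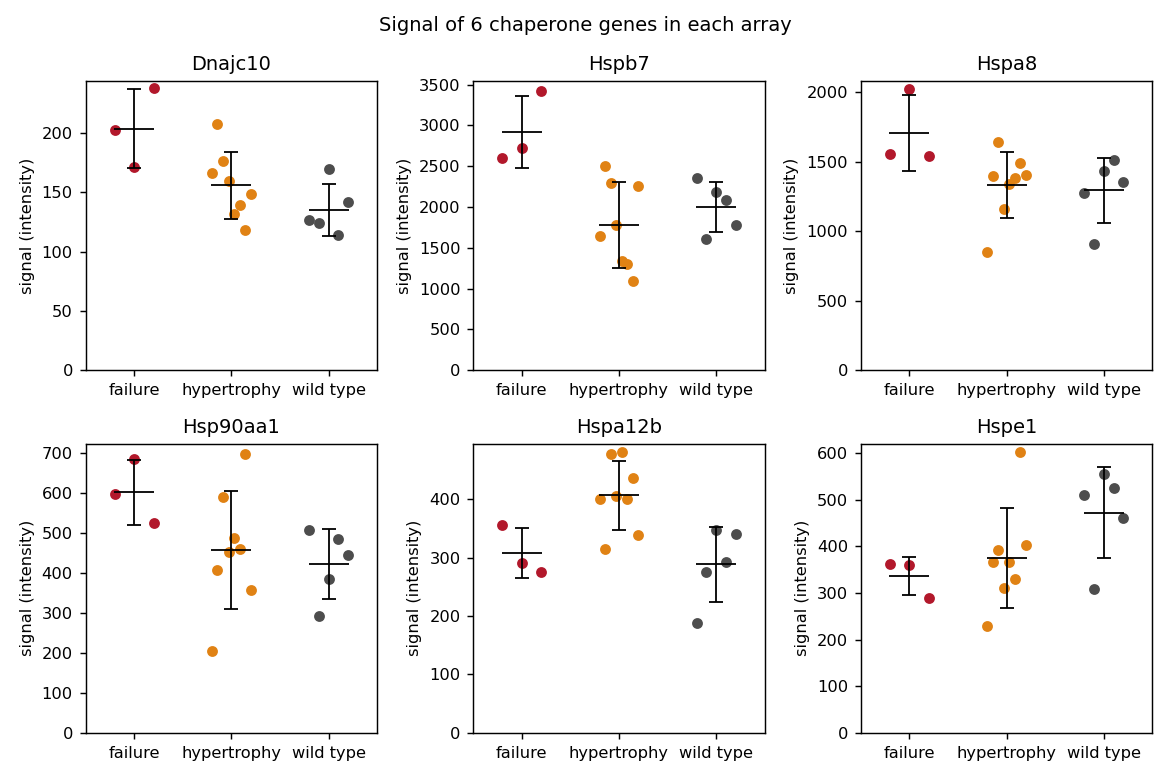
Signal (intensity, linear axis from 0) of Dnajc10, Hspb7, Hspa8, Hsp90aa1, Hspa12b and Hspe1 in each of the 3 failure, 8 hypertrophy and 5 wild type arrays. Points are arrays, the wide mark is the group's mean and the bars its SD. Failure lies above wild type in every array for the first 4 genes, and hypertrophy overlaps wild type in all 6.

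Of the small heat shock protein genes, 4 of 6 were tested and 0 passed in failure against wild type (1 of 4, Hspb7, at an unadjusted p under 0.05, limma). Hspb7, a small heat shock protein of heart and skeletal muscle, read 2605, 2728 and 3428 in failure. In hypertrophy the lowest value was 1090, the median 1712 and the highest 2503. In wild type it read 2351, 1608, 2183, 2088 and 1776. The failure arrays lay above every array of both other groups, and hypertrophy overlapped wild type. Against wild type the log2 difference of failure was 0.55 ± 0.24 (SE), a fold of 1.46 with a 95% interval of 1.03 to 2.08 (limma adjusted p = 0.364).

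Against hypertrophy, the log2 difference of Hspb7 in failure was 0.76 ± 0.22 (SE), a fold of 1.70 with a 95% interval of 1.23 to 2.35 (limma adjusted p = 0.382). Failure array 3, the brightest for Hspb7, did not carry the direction alone: leaving out single arrays gave log2 differences of 0.64 to 0.84. However, the dimmest hypertrophy arrays for Hspb7 were array 7, at 1090, and array 6, at 1306, those of low Gapdh ratio. Leaving out single arrays never removes both, and the part of RNA quality in this difference was not tested. Among the chosen probe sets of tested genes, that of Hspb7 was the only one whose failure arrays all lay above all hypertrophy arrays. This was 1.89% of the tested genes against 1.47% of all probe sets. The untested Hspa1b, near or below the floor, and other probe sets of Hspa4 and Hspa4l did so too, as given above. No chosen or other probe set of a chaperone gene had all failure arrays below hypertrophy, where 0.686% of all probe sets did.

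The other small heat shock proteins overlapped between groups. Hspb6 (Hsp20, a muscle protein phosphorylated by protein kinase A) read 2314 to 3629 in failure, 1857 to 3485 in hypertrophy and 1789 to 2806 in wild type. Its log2 difference was 0.33 ± 0.21 (SE) in failure against wild type (limma adjusted p = 0.545). Hspb8 (Hsp22, which works with the co-chaperone Bag3) read 1713, 1767 and 1733 in failure, 788 to 1890 in hypertrophy and 1280 to 1720 in wild type. The failure values lay close together at the upper end of wild type, with a log2 difference of 0.23 ± 0.23 (SE, limma adjusted p = 0.785). Hspb2, first described as a partner of a muscle kinase, read 598 to 684 in failure, 458 to 885 in hypertrophy and 610 to 761 in wild type. Hspb1 (Hsp25 in mice), a classic heat-inducible member, lay below the floor on 15 of 16 arrays, and Hspb9, described in testis, was not tested at 37.4 to 54.2 in failure, 45.5 to 59.9 in hypertrophy and 14.1 to 60.2 in wild type.

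Of the mitochondrial chaperonin genes, Hspe1 (HSP10, the lid) had the lowest difference of all tested chaperone genes in failure against wild type. Its signal was 361, 360 and 289 in failure. In hypertrophy the lowest value was 230, the median 367 and the highest 601. In wild type it was 509, 308, 554.5, 526 and 461. The failure arrays lay below 4 of the 5 wild type arrays, but wild type array 2 fell among them. The log2 difference was -0.46 ± 0.24 (SE), a fold of 0.725 with a 95% interval of 0.513 to 1.02 (limma adjusted p = 0.518). In hypertrophy it was -0.35 ± 0.18 (SE, limma adjusted p = 0.960). Hspd1 (HSP60, the ring) read 954, 931 and 664 in failure, 623 to 1274 in hypertrophy and 603 to 896 in wild type, with a difference of 0.12 ± 0.22 in failure against wild type (SE, limma adjusted p = 0.899).

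Because both genes share the promoter region printed above, their ratio was taken within each array; the pair was chosen after its values were seen, so the ratio is a description with no test. It compares an array with another array and says nothing of which gene is more abundant. The Hspd1 signal was 2.64, 2.59 and 2.30 times that of Hspe1 in failure, 1.84 to 3.14 times in hypertrophy and 1.63, 1.96, 1.41, 1.49 and 1.94 times in wild type. All 3 failure arrays and 7 of the 8 hypertrophy arrays lay above every wild type array. No share over the ratios of other pairs of probe sets is given beside these counts, so how unusual they are cannot be read from them. The mean log2 ratio was higher than in wild type by 0.58 in failure and by 0.46 in hypertrophy; with the dimmer Hspd1 probe set it was higher by 0.60 and 0.23. That dimmer probe set did not separate the groups. Its ratio was 0.555 to 0.646 in failure, 0.264 to 0.715 in hypertrophy and 0.334 to 0.631 in wild type, with 1 failure array and 2 hypertrophy arrays above every wild type array.

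**Figure D4:**
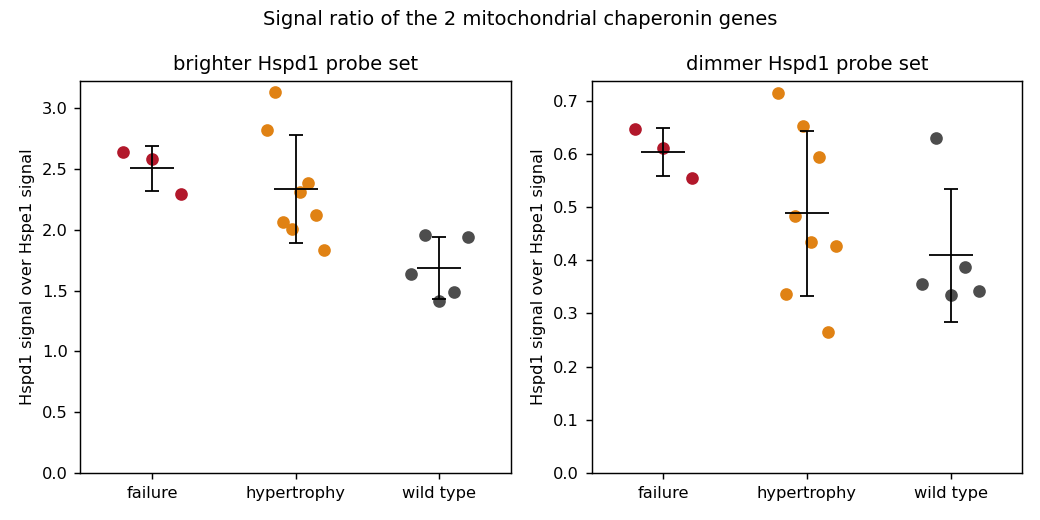
Hspd1 signal over Hspe1 signal (linear axis from 0) in each failure, hypertrophy and wild type array, with the brighter Hspd1 probe set on the left and the dimmer one on the right. Points are arrays, the wide mark is the group's mean and the bars its SD. With the brighter probe set, failure lies above wild type in 3 of 3 arrays, and with the dimmer one in 1 of 3.

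The cytosolic chaperonin CCT, a ring of different subunits that folds actin and tubulin, had 7 of 8 genes tested and 0 passed in failure against wild type (0 of 7 at an unadjusted p under 0.05, limma). The median log2 difference was 0.18, with 5 above 0 and 2 below. Cct8 read 280, 285 and 270 in failure, 137 to 296.5 in hypertrophy, and 249, 130, 222, 222 and 248 in wild type. Failure lay above wild type in every array, and hypertrophy spanned both. Its difference was 0.42 ± 0.24 (SE, limma adjusted p = 0.576), and 0.25 without wild type array 2, the dimmest. Cct2, Cct3, Cct4, Cct5, Cct6a and Cct7 overlapped in every pair of groups. The dimmest tested Cct3 probe set, whose groups overlapped as well, differed by 0.85 ± 0.29 in failure against hypertrophy (SE, limma adjusted p = 0.332). It reached the array's median only in failure arrays 1 and 2 and wild type array 5, and read 21.8, below the floor, in hypertrophy array 7. It was thus tested mainly through the group where it was high, so this difference carries no weight as a test. In failure against hypertrophy, 6 of 7 subunits lay above 0 with a median of 0.10, where 8181 of all 13984 probe sets did. In hypertrophy against wild type 4 of 7 did with a median of 0.02, where 7269 of all probe sets did. Cct6b, a testis form, lay below the floor on 12 of 16 arrays.

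Of the J proteins of class A, the main partners of cytosolic and mitochondrial HSP70, all 4 were tested and 0 passed in failure against wild type (0 of 4 at an unadjusted p under 0.05, limma). Dnaja4 read 305, 360 and 375 in failure, 201 to 357 in hypertrophy, and 282, 301, 272, 275 and 281 in wild type. All failure arrays were above wild type, by a log2 difference of 0.29 ± 0.15 (SE, limma adjusted p = 0.450). Against hypertrophy, which overlapped failure, it was 0.34 ± 0.14 (SE, limma adjusted p = 0.507). A second Dnaja4 probe set also had every failure array above wild type, by 0.56 ± 0.21 (SE, limma adjusted p = 0.279). Dnaja1, an HSP70 partner of the cytosol, read 76.0 to 120 in failure, 62.6 to 164 in hypertrophy and 70.7 to 123 in wild type. Dnaja2, its close relative, read 177 to 234 in failure, 157 to 225 in hypertrophy and 173 to 212 in wild type. Dnaja3 (Tid1, the J protein of the mitochondrial matrix) read 458 to 593.5 in failure, 513 to 1274 in hypertrophy and 506 to 671 in wild type. The groups overlapped for all 3 genes.

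Class B J proteins had 7 of 13 genes tested and 0 passed in failure against wild type (1 of 7, Dnajb4, at an unadjusted p under 0.05, limma). Dnajb4 read 330, 429 and 353 in failure, 290 to 361 in hypertrophy, and 318.5, 289, 296, 328 and 300.2 in wild type. Failure array 1 exceeded the brightest wild type array only narrowly. Its log2 difference was 0.27 ± 0.11 (SE, limma adjusted p = 0.410), and 0.60 ± 0.26 (SE, limma adjusted p = 0.349) with another Dnajb4 probe set, again with every failure array above wild type. Dnajb2, a J protein best known from neurons, had every failure array below wild type, at 191, 209 and 190. It read 190 to 298 in hypertrophy, and 236, 228, 234, 238 and 265 in wild type, so hypertrophy overlapped both. The difference was -0.29 ± 0.15 (SE, limma adjusted p = 0.435), but a dimmer Dnajb2 probe set on the first array type gave 0.28 ± 0.26 (SE, limma adjusted p = 0.761), so the direction depends on the probe set. The name of the chosen one carries an Affymetrix suffix for probes that may match several related transcripts, and that of the dimmer one does not.

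Dnajb5, a J protein found in heart and brain, read 211, 232 and 334.5 in failure, 156 to 256 in hypertrophy and 189 to 284 in wild type. Hypertrophy tended to the lower end and failure array 3 was the brightest of all. The log2 difference was -0.25 ± 0.14 (SE) in hypertrophy against wild type (limma adjusted p = 0.960) and 0.37 ± 0.16 (SE) in failure against hypertrophy (limma adjusted p = 0.459). Dnajb6, which suppresses aggregation and whose inherited variants cause muscle disease in humans, read 315 to 465.5 in failure, 272 to 398.5 in hypertrophy and 314 to 370.5 in wild type. Dnajb1 (HSP40), the classic heat-inducible J protein, lay below the floor on 10 of 16 arrays. Of the J proteins of the endoplasmic reticulum, Dnajb11 lay below it on all 16, and Dnajb9 was not tested, at 61.7 to 79.9 in failure, 18.2 to 99.9 in hypertrophy and 57.7 to 80.9 in wild type.

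Class C J proteins, a mixed group that shares the J domain alone, had 14 of 23 genes tested and 0 passed in failure against wild type (2 of 14, Dnajc10 and Dnajc2, at an unadjusted p under 0.05, limma). Dnajc10 (ERdj5, a reductase that unlinks disulfide bonds in the endoplasmic reticulum) had the smallest p-value of the chosen probe sets there. It read 203, 171 and 238 in failure, with a lowest of 118, a median of 154 and a highest of 207 in hypertrophy. In wild type it read 126, 124, 169.6, 114 and 142. The failure arrays were all above wild type, though failure array 2 exceeded the brightest wild type array by little. The log2 difference was 0.59 ± 0.17 (SE), a fold of 1.51 with a 95% interval of 1.17 to 1.94 (limma adjusted p = 0.134). Its probe set carries the suffix Affymetrix gives to sets whose probes may match several related transcripts, and its other probe set was too dim to be tested.

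Against hypertrophy, which overlapped failure, the Dnajc10 difference was 0.39 ± 0.16 (SE, limma adjusted p = 0.500). Dnajc2, a J protein that works at the ribosome, read 176, 183 and 138 in failure, 110 to 173 in hypertrophy and 115 to 143 in wild type. Failure array 3 lay among the wild type arrays, and the difference was 0.35 ± 0.14 (SE, limma adjusted p = 0.383). Dnajc3 (p58IPK, which restrains the stress kinase PERK) read 116 to 173 in failure, 146 to 211 in hypertrophy and 137 to 207 in wild type. Dnajc5 (cysteine string protein, of secretory vesicles) read 102 to 136 in failure, 65.8 to 181 in hypertrophy and 92.2 to 136 in wild type. Dnajc8, which is linked to RNA splicing, read 229 to 307 in failure, 152 to 556 in hypertrophy and 257 to 310 in wild type. With these probe sets, the 3 genes overlapped between all groups.

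Another Dnajc5 probe set read 88.3, 129 and 122 in failure, with a lowest of 59.6, a median of 84.6 and a highest of 109 in hypertrophy, and 76.4, 68.2, 74.5, 77.9 and 70.7 in wild type. All failure arrays lay above wild type, and hypertrophy overlapped both. The log2 difference of failure from wild type was 0.60 ± 0.16 (SE, limma adjusted p = 0.109). It passed without hypertrophy array 1 (limma adjusted p = 0.0387) and in the fit of the failure and wild type arrays alone (limma adjusted p = 0.0445). The remaining Dnajc5 probe sets differed by 0.39 and 0.16, with overlap, and the chosen one by -0.02, so the size and the direction depend on the probe set.

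Dnajc1, a J protein of the endoplasmic reticulum, overlapped between all groups with its chosen probe set. The dimmest tested one read 70.5, 65.0 and 63.1 in failure, with a lowest of 39.6, a median of 48.7 and a highest of 73.9 in hypertrophy, and 82.6, 73.1, 85.7, 75.8 and 75.4 in wild type. Failure lay below wild type in every array, by -0.25 ± 0.19 (SE, limma adjusted p = 0.643), and hypertrophy overlapped both. The difference of hypertrophy from wild type, -0.57 ± 0.15 (SE, limma adjusted p = 0.214), had the smallest p-value there of any chosen or other chaperone probe set. However, this probe set reached the array's median in wild type arrays alone, the group where it was high. The filter thus favoured this direction, and its differences from wild type carry no weight as tests. The remaining Dnajc1 probe set differed by 0.07 ± 0.11 (SE, limma adjusted p = 0.870) in hypertrophy against wild type.

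In hypertrophy against wild type, Dnajc27 differed by 0.16 ± 0.10 (SE, limma adjusted p = 0.637) and Dnajc30, a mitochondrial J protein, by 0.15 ± 0.10 (SE, limma adjusted p = 0.660).

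The tested genes not described one by one were Hspa12a, Dnajb12, Dnajb13, Dnajb14, Dnajc9, Dnajc11, Dnajc16, Dnajc18, Dnajc21, Dnajc22, Hspb11 and Hspbp1, and with every tested probe set of each all pairs of groups overlapped. Beside the dim genes named above, Hspa13, Dnajb3, Dnajb7, Dnajb8 and the class C genes Dnajc4, Dnajc7, Dnajc12, Dnajc13, Dnajc14, Dnajc15, Dnajc17, Dnajc24 and Dnajc25 were not tested, which makes 21 untested genes in all. Of the 74 genes, 5 lay below the floor on 12 or more arrays: Hspa1b, Hspb1, Cct6b, Dnajb11 and Dnajc25.

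With the chosen probe sets, 0 of the 53 chaperone genes passed in hypertrophy against wild type (limma), against 0.0858% of all probe sets. At an unadjusted p under 0.05 there was 1 gene, Hspa12b (1.89%, against 7.12% of all probe sets). No chosen or other probe set had all hypertrophy arrays above, or all below, wild type, where 0.3% and 0.136% of all probe sets did. The median difference was 0.03, with 30 genes above 0 and 23 below, and 0.01 over all probe sets, with 7269 above and 6715 below. In failure against hypertrophy, 0 of 53 passed (limma), against 0.0143% of all probe sets, and 6 had an unadjusted p under 0.05 (11.3%, against 9.36%): Hspb7, Hspa1l, Dnajc10, Dnaja4, Hspa12b and Dnajb5. The median difference was 0.09, with 36 genes above 0 and 17 below, and 0.04 over all probe sets, with 8181 above and 5803 below. The median of the chaperone genes was 0.03 without hypertrophy array 1 and 0.14 without hypertrophy array 7. Both comparisons with failure use the same failure arrays, so they are not independent of each other.

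Single arrays stood apart across many chaperone genes. On the first array type, hypertrophy 1 was the lowest of the 16 arrays for 17 of the 34 tested chaperone genes, and for 31.1% of all probe sets. Wild type array 2 was the lowest for 7 (20.6%, against 5.73%). Hypertrophy 7, the array of low Gapdh ratio, was the highest for 15 (44.1%, against 25.9%). The heat-inducible Hsph1 was set against Hsp90aa1, Dnaja1 and Hspa8 array by array, genes picked with earlier results of these data known. The p-values below are against no relation at all, and genes read from the same arrays share the level of the array, so the same r is given for all 6979 other tested probe sets of the type. Over these the median r with Hsph1 was 0.24 in all 16 arrays and 0.35 in the 8 hypertrophy arrays.

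Across all 16 arrays of the first type, the log2 signal of Hsph1 was correlated with that of Hsp90aa1 at r = 0.90 (permutation p = 2e-05, adjusted p = 0.00012 over 6 correlations) and rho = 0.79 (permutation p = 0.00047, adjusted p = 0.00171). For Dnaja1, r was 0.79 (permutation p = 0.00023, adjusted p = 0.00069) and rho 0.78 (permutation p = 0.00057, adjusted p = 0.00171). For Hspa8, r was 0.78 (permutation p = 0.00074, adjusted p = 0.00111) and rho 0.49 (permutation p = 0.0564, adjusted p = 0.0691). Without hypertrophy 1 and wild type 2, the arrays farthest from the Hsph1 median, r was 0.71 for Hsp90aa1, 0.62 for Dnaja1 and 0.36 for Hspa8. The relation with Hspa8 thus rested largely on those 2 arrays. An r at least as high was found in 0.0716% of all probe sets for Hsp90aa1, 1.35% for Dnaja1 and 1.49% for Hspa8, and without those 2 arrays in 0.430%, 1.35% and 15.9%.

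Within the 8 hypertrophy arrays alone, r with Hsph1 was 0.97 for Hsp90aa1 (exact permutation p = 0.000595, adjusted p = 0.00111) and rho 0.86 (exact permutation p = 0.0107, adjusted p = 0.0214). For Hspa8 r was 0.91 (exact permutation p = 0.00737, adjusted p = 0.00884) and rho 0.71 (exact permutation p = 0.0576, adjusted p = 0.0691). For Dnaja1 r was 0.81 (exact permutation p = 0.0271, adjusted p = 0.0271) and rho 0.62 (exact permutation p = 0.115, adjusted p = 0.115). Without hypertrophy 1 and 7, r was 0.81, 0.63 and 0.18 for Hsp90aa1, Hspa8 and Dnaja1 in that order, so the relation of Dnaja1 in this group rested on those 2 arrays. In the 8 arrays, 0.287% of all probe sets had an r at least as high as Hsp90aa1, 3.14% as Hspa8 and 11.6% as Dnaja1, and without those 2 arrays 2.05%, 8.10% and 39.4%. All tests were two-sided.

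**Figure D5:**
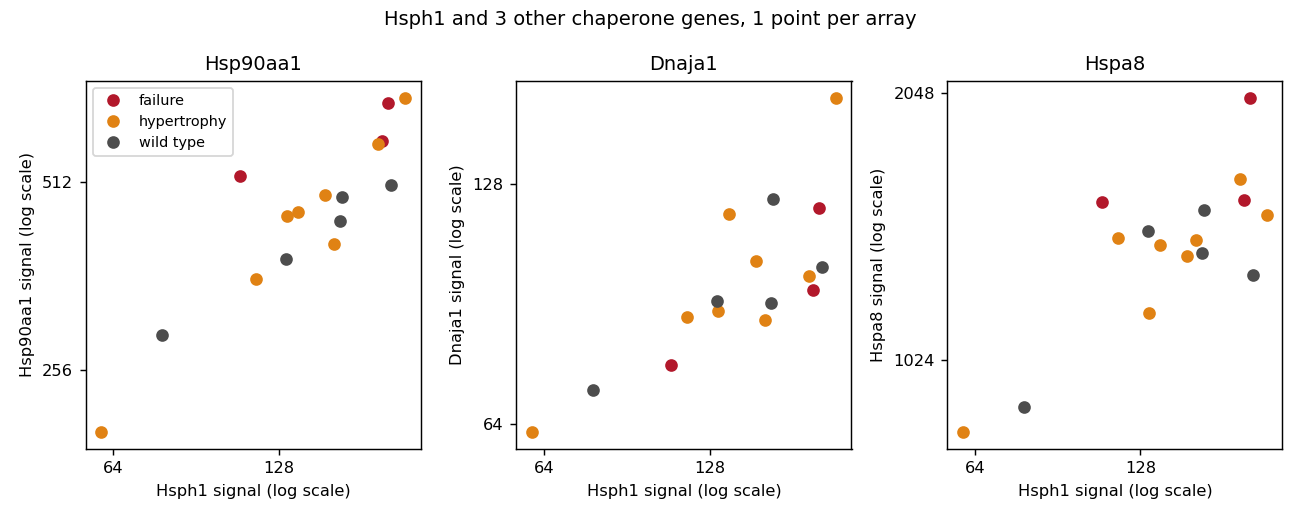
Signal of Hsp90aa1, Dnaja1 and Hspa8 (vertical, log scale) against that of Hsph1 (horizontal, log scale), 1 point per array of the first type, by group. Hsp90aa1 follows Hsph1 in all 3 groups (r = 0.90 over 16 arrays), and the 2 arrays lowest in Hsph1, hypertrophy 1 and wild type 2, are also the lowest in all 3 genes.

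Partners of the chaperones were read from 3 lists, each gene with its brightest probe set alone, and 0 genes passed in any comparison (limma). Of the cytosolic regulators and co-chaperones, 35 of 41 were tested, and 3 had an unadjusted p under 0.05 in failure against wild type (8.57%, against 11.4% of all probe sets). In 3 genes (8.57%, against 9.17%) every failure array lay above wild type and in 3 (8.57%, against 4.35%) below. Fkbp4 (FKBP52, a co-chaperone of HSP90 on steroid receptors) read 359, 406 and 386 in failure, against 700.5, 465, 820, 785 and 730 in wild type. Every failure array lay below every wild type array, with a log2 difference of -0.84 ± 0.25 (SE, limma adjusted p = 0.219). With only the failure and wild type arrays in the fit, the adjusted p was 0.0404 (limma). Tsc1, described as a co-chaperone of HSP90, differed by 0.42 ± 0.17 (SE, limma adjusted p = 0.397), and Bag4, a nucleotide exchange factor of HSP70, by -0.44 ± 0.19 (SE, limma adjusted p = 0.364).

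In hypertrophy against wild type, 3 genes of that list had an unadjusted p under 0.05 (limma; 8.57%, against 7.12% of all probe sets). They were Pfdn1, a prefoldin subunit (0.68 ± 0.19 SE, limma adjusted p = 0.240), Chordc1, a co-chaperone of HSP90 (0.29 ± 0.13 SE, limma adjusted p = 0.960), and Ppp5c, a phosphatase bound to HSP90 (-0.46 ± 0.22 SE, limma adjusted p = 0.960). In failure against hypertrophy 2 genes had one (5.71%, against 9.36%), and the smallest p-values were those of Fkbp4, the prefoldin subunit Pfdn6 and Tsc1, at log2 differences of -0.64, -0.38 and 0.33. Their groups overlapped in each case.

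Of the genes for folding and stress in the endoplasmic reticulum, 23 of 35 were tested, and 2 had an unadjusted p under 0.05 in failure against wild type (limma; 8.70%, against 11.4% of all probe sets). In 5 genes (21.7%, against 9.17%) every failure array lay above wild type, and in 0 below. Atf6, the sensor that acts on the element printed for Hspa5 and Hsp90b1, read 112, 112 and 134 in failure, against 93.3, 84.3, 86.9, 74.4 and 96.7 in wild type. All failure arrays lay above wild type, by 0.46 ± 0.12 (SE, limma adjusted p = 0.0982). Ern1 (IRE1, another sensor) differed by 0.36 ± 0.15 (SE, limma adjusted p = 0.336) and Herpud1, a protein of degradation at the endoplasmic reticulum, by 0.36 ± 0.18 (SE, limma adjusted p = 0.504). Hspa5 and Hsp90b1 overlapped between the same groups, as given above. In failure against hypertrophy 4 genes had an unadjusted p under 0.05 (17.4%, against 9.36%), and Atf6, Ddit3 and Xbp1 had the smallest, at 0.33, 0.33 and 0.45. Ddit3 was tested in 13 of the 16 fits that left out 1 array, so it only just met the filter on dim probe sets. Which arrays let it in is not given here, so its difference, counted among the 4, is not read as a test. In hypertrophy against wild type 0 did (against 7.12%), and Txndc5, Ern1 and Ppp1r15a had the smallest p-values, at -0.17, 0.24 and -0.35.

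Of the genes for mitochondrial folding and proteolysis, 11 of 15 were tested, and 1 had an unadjusted p under 0.05 in failure against wild type (limma; 9.09%, against 11.4% of all probe sets). In 2 genes (18.2%, against 4.35%) every failure array lay below wild type, and in 0 above. Ppif (cyclophilin D, a prolyl isomerase of the matrix) read 267, 306 and 341 in failure, against 399, 351, 553, 433 and 467 in wild type. Every failure array lay below wild type, by -0.52 ± 0.25 (SE, limma adjusted p = 0.462). The proteases Oma1 and Spg7 followed at -0.33 and 0.19. In hypertrophy against wild type, Spg7, Ppif and Grpel1 had the smallest p-values, at 0.23, -0.22 and -0.16, and in failure against hypertrophy Oma1, Ppif and Clpx, at -0.30, -0.30 and 0.14.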

How the data were processed

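Total RNA of mouse cardiac ventricle was measured on 2 Affymetrix array types, 16 arrays each. The deposited values are intensities, 1 per probe set; the authors' scaling and summary of them are not given in the sources used here. Gene names come from the annotation of the platform and were brought to the symbols of GRCm38.p6. Before log2, the 20th percentile of intensities of each array type served as a floor, and probe sets at or above the array's median in at least 3 arrays were tested (6980 and 7004). In R 4.3.3, limma 3.58.1 (lmFit, eBayes) fitted the 16 arrays of a type in 1 model of 3 groups, with Benjamini-Hochberg adjustment per array type and comparison at 0.05. Precision is limited by the number of arrays. Correlations used 100000 permutations, or all of them for 8 arrays.

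The genes and lists were chosen with earlier results of these data known. Named were fixed members of each family, the 6 smallest p-values per comparison, the 5 brightest genes and the 5 of largest spread within groups, and of each list of partners the 3 smallest p-values per comparison. Replicate numbers are shared between groups. Same-numbered arrays correlated from -0.19 to 0.36 in 22 pairs, 5 of them over 0.1, so the numbers were not taken to pair samples. Alternatives were quantile and median scaling, a floor at the 10th percentile, no filter, a variance trend with robust estimation, a fit of just the compared groups, a block for the replicate number, another choice of probe set, and leaving out each array or hypertrophy arrays 6 and 7, of low Gapdh ratio, together. Those of the Hspd1 to Hspe1 ratio, and the other probe sets described, were chosen after seeing the data. Figures were drawn with matplotlib 3.10.9.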

Additional observations from a re-analysis of the deposited data

Results flagged for a closer look

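In 11 of 106 sets, each 1 tested gene in the hypertrophy or the wild type arrays, 1 array lay far from the others by Dixon's criterion. Chance alone meets it in about 1 of 20 independent sets. These sets share the same arrays and are not independent, and no share over all probe sets is given beside the count. Hypertrophy array 7, the one of low Gapdh ratio, was high for Hspe1 (601, others 230 to 404), Dnaja3 (1274, others 513 to 709) and Dnajc8 (556, others 152 to 330). Wild type array 2 was low for Cct5 (157, others 234 to 262), Cct8 (130, others 222 to 249) and Dnajb13 (153, others 201 to 202). Wild type array 3 was high for Cct6a (294.5, others 261 to 265) and low for Dnajc1 (137, others 165 to 173) and Dnajc5 (92.2, others 128 to 136). Wild type array 5 was high for Dnaja2 (212, others 173 to 184) and Dnajb2 (265, others 228 to 238).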

How the results depend on the processing

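With its chosen probe set, no chaperone gene passed in any comparison under any of the alternatives run (limma), including the fit of only failure and wild type, which called 122 and 193 probe sets on the 2 array types against 10 and 25. There the smallest adjusted p of a chaperone gene was 0.0688 and 10 genes had an unadjusted p under 0.05, against 4. With the replicate number as a block, 3 and 6 probe sets were called in failure against wild type, 0 chaperone genes were, and the smallest adjusted p of these was 0.292. In failure against wild type the whole table gave 30 and 35 calls under quantile scaling, 33 and 40 under median scaling, 22 and 55 with no filter, and 36 and 70 without hypertrophy arrays 6 and 7. The total of 35 calls over both array types there ranged from 5 (without failure array 1, or failure array 2) to 109 (without hypertrophy array 1) when single arrays were left out. In hypertrophy against wild type the total was 12 and ranged from 6 to 26, the highest without hypertrophy array 1, and in failure against hypertrophy it was 2 and ranged from 0 to 24, the highest without failure array 3. Of the other probe sets, the one of Hspa4 with the smaller spread passed in failure against wild type with no filter (limma adjusted p = 0.00767). Its log2 difference was unchanged there, and its SE fell from 0.091 to 0.054. The Dnajc5 probe set with the largest difference passed in failure against wild type in the fit of 2 groups (limma adjusted p = 0.0445) and without hypertrophy array 1 (limma adjusted p = 0.0387). Leaving out single arrays, the median difference of chaperone genes ranged from 0.050 to 0.19 in failure against wild type, from -0.04 to 0.09 in hypertrophy against wild type and from 0.03 to 0.14 in failure against hypertrophy; it was 0.08 and 0.02 in failure against wild type under quantile and median scaling. The direction of Dnajb2 in failure against wild type turned with the probe set of the first array type (0.28). That of Hspa5 turned under median scaling (-0.0090) and without wild type array 2, where leaving out single arrays gave -0.028 to 0.20, and that of Hsph1 without wild type array 2 (-0.018 to 0.49). The correlation of Hsph1 and Dnaja1 in hypertrophy lost its call under quantile scaling (r = 0.68, exact permutation p adjusted to 0.0660) and median scaling (r = 0.69, exact permutation p adjusted to 0.0623). The log2 ratio of Hspd1 to Hspe1 in failure minus hypertrophy was 0.12, and 0.37 with the dimmer Hspd1 probe set. The causes were not tested. Probe sets near the floor limit what can be read of Hspa1b, Hspb1, Dnajb1 and Dnajb11.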
